A study of Mus musculus with 2 samples.

Results

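The endoplasmic reticulum chaperones and factors of the unfolded protein response were followed in mouse hypothalamus at opposite times of day, with and without bezafibrate, a fibrate drug that activates PPAR nuclear receptors. The members were 10 genes: Hspa5, Hsp90b1, Sdf2l1, Dnajb9, Calr, Pdia4, Pdia6, Herpud1, Xbp1 and Atf4. They were found by gene symbol, or by an older symbol, among the probes that were not array controls, and they make up 10 of the 21441 genes that the array names. Together they had 16 probes, all well above background on all 4 arrays. Hsp90b1 carries its older symbol Tra1 on both of its probes.

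RNA came from a block of tissue holding the hypothalamus, and equal amounts from 4 mice of the same diet and time were pooled before labelling. The 4 pools were control mice at ZT10, bezafibrate mice at ZT10, control mice at ZT22 and bezafibrate mice at ZT22, where ZT is zeitgeber time in hours. Each pool was measured on 1 single-colour array, so no spread between mice or pools is known and a pair of arrays carries no p-value. The feeding schedule given here is that of the bezafibrate mice. They entered at 8 weeks of age and ate normal feed for 2 weeks. Feed with 0.5% bezafibrate followed for 2 weeks, and then normal feed again for 5 weeks. The labels do not say at which of these stages the brains were taken, and they give neither the strain nor the sex. Defining genes of the tissue were present: 5 of 6 transcription factors of the hypothalamus and 11 of 11 measured peptide genes were above background on all 4 arrays.

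The endoplasmic reticulum folds secreted and membrane proteins, and its resident chaperones and disulfide isomerases are made in step with that load. When unfolded proteins build up, the sensors IRE1, PERK and ATF6 release a transcriptional response in which spliced XBP1, ATF4 and cleaved ATF6 raise the genes for chaperones, degradation and amino acid supply. Peptide-secreting neurons of the hypothalamus carry a heavy secretory load, and chaperones are among the abundant transcripts of such cells.

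Promoters of some chaperones carry a known control sequence, the ER stress response element (ERSE). It holds the letters CCAAT, then 9 bases, then CCACG. It was searched on both strands in the 250 bases before and 50 bases after each RefSeq transcript start of build GRCm38.p6. ERSE was found in 4 of the 10 members, against 0.137% of the 27025 genes with a promoter in the table. Since the motif is already known from chaperone promoters, this share is a description and was not tested. Its relative ERSE-II (ATTGG, 1 base, CCACG) was found in 1 member, Herpud1, against 0.0444% of genes, and no promoter window held both motifs. The stretches around the matches are printed for the 4 chaperones that hold ERSE and for Herpud1. They run 5′ to 3′ on the gene's own strand, and capitals mark the outer letters of the motif.
Hspa5, chr2:34772010-34772058, plus strand: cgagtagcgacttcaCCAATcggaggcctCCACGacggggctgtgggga
Hsp90b1, chr10:86705518-86705671, minus strand: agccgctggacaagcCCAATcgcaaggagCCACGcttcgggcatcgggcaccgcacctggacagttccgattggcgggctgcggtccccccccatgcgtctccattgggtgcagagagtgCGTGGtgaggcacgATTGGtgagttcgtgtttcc
Calr, chr8:84847060-84847108, minus strand: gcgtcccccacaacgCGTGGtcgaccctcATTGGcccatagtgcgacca
Pdia6, chr12:17266476-17266524, plus strand: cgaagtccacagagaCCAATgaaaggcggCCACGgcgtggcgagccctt
Herpud1, chr8:94386362-94386402, plus strand: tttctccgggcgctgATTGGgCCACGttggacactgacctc

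The Hspa5 match lies 65 to 47 bases before the start, the Pdia6 match 98 to 80 and the Herpud1 match 52 to 42. Hsp90b1 holds a pair of matches, 212 to 194 bases before the start on the gene's strand and 107 to 89 bases before it on the opposite strand. In Calr the match reads on the opposite strand, 162 to 144 bases before the start. A match is a description of letters and not a measured binding site. The XBP1 motif UPRE (TGACG joined to TGG) was in 0 of the 10 member windows and 0.714% of genes. The ATF4 motif CARE (TGATG, 1 base, AAT) was in 0 of the members and 1.08% of genes.

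**Figure D1:**
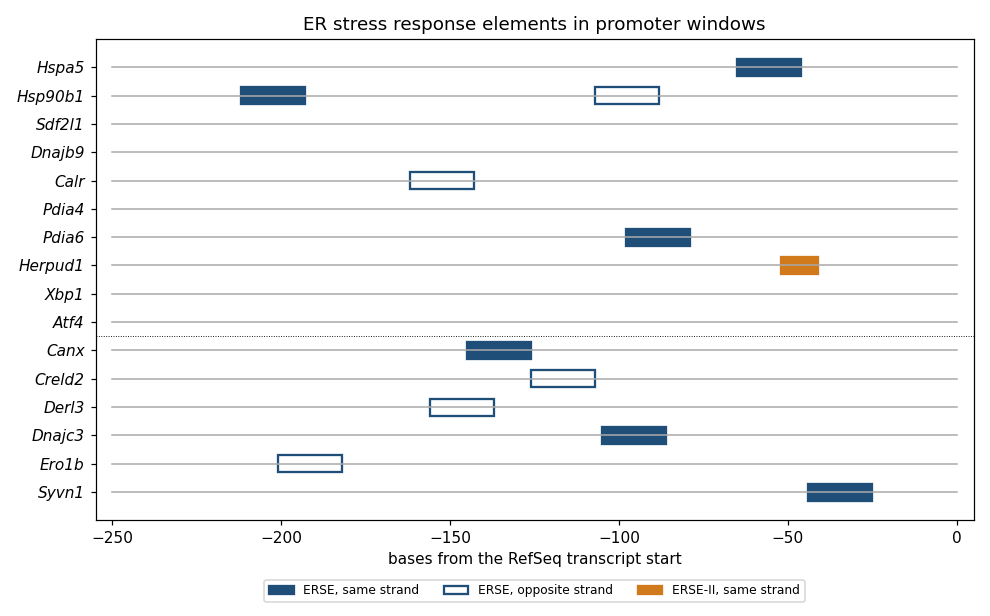
Positions of ERSE and ERSE-II in the 250 bases before the transcript start, with the 10 members above the dotted line and the 6 genes of the pathway lists that hold ERSE below it. The horizontal axis is in bases from the RefSeq start, filled boxes read on the gene's strand and open boxes on the opposite strand; 4 members hold ERSE and Herpud1 holds ERSE-II.

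Levels are given as scaled signal, the scanner software's background-subtracted signal divided by the 75th percentile of the same array. That percentile was 1010 on both control arrays, 1050 for bezafibrate at ZT10 and 893 for bezafibrate at ZT22. Differences are log2 ratios of scaled signals. The value after ± is an error of the ratio, computed from the errors the scanner software gives for the signals on both arrays. It was close to 0.20 for every member and covers neither mice nor pools. Over all genes compared its median was also 0.20, so it is largely a common value. Signals are compared only within a probe. In each list the 4 values follow the order control ZT10, bezafibrate ZT10, control ZT22, bezafibrate ZT22.

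The clearest pattern among the members, which were chosen with earlier results of these data known, was by time of day. All 7 chaperones and folding enzymes, each read on its brightest probe, were higher at ZT22 than at ZT10 in control mice. They were higher again in bezafibrate mice, whose pools are different animals. Their median log2 ratio was 0.19 in control and 0.22 in bezafibrate mice, beside 0.03 and 0.04 over all genes compared. Of the 15918 genes measured on every array, 42.8% were higher at ZT22 in both diets. Dnajb9 in bezafibrate mice, at 0.05, was close to the median of all genes. Some dimmer probes were not higher: Dnajb9 had -0.003 in control and -0.001 in bezafibrate mice, and Pdia6 -0.008 in bezafibrate mice. None of the 3 members outside the chaperones was higher at ZT22 in both diets. Herpud1, Xbp1 and Atf4 had medians of 0.03 in control and -0.12 in bezafibrate mice. A higher level in a tissue pool may be more RNA per cell or more cells that hold it, and these cannot be told apart.

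Hspa5 encodes BiP, the Hsp70 chaperone of the lumen that also holds the stress sensors inactive. Its scaled signal was 24.8, 27.2, 31.0 and 31.6, so both ZT22 pools stood above both ZT10 pools. The log2 ratio of ZT22 over ZT10 was 0.32 ± 0.20 in control mice and 0.21 ± 0.20 in bezafibrate mice. Among the 7798 bright genes, those averaging 1000 or more in signal before scaling, these were the 97.5th and 91.6th percentiles.

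Hsp90b1 encodes GRP94, the Hsp90 of the same compartment. Probe A_52_P624149 read 34.2, 30.9, 37.9 and 37.3. Probe A_52_P590546 read 21.3, 21.0, 25.3 and 25.8. On both probes the ZT22 pools were above the ZT10 pools. The log2 ratios by time were 0.15 and 0.25 in control mice and 0.27 and 0.29 in bezafibrate mice, each ± 0.20.

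Sdf2l1, a small lumenal protein found in complexes with BiP and its co-chaperones, read 1.40, 1.49, 2.03 and 1.81. Its ratio by time in control mice, 0.54 ± 0.20 or 1.45-fold, was the largest of any member in any comparison. In bezafibrate mice it was 0.29 ± 0.20. The ZT22 pools again lay above both ZT10 pools, and they differed more from each other than the ZT10 pools did.

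Dnajb9 encodes ERdj4, a J-domain protein that works with BiP, and it differed least of the chaperones. Its brightest probe, A_51_P198835, read 2.94, 3.07, 3.17 and 3.17, giving log2 ratios by time of 0.11 in control and 0.05 in bezafibrate mice. The other probes, A_52_P150356 and A_52_P613358, gave ratios of -0.00 and 0.06 in control mice and 0.10 and -0.00 in bezafibrate mice. All of these are smaller than the scanner error.

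Calr encodes calreticulin, a calcium-binding lectin that retains glycoproteins until they fold. Probe A_51_P416419 read 8.06, 7.95, 9.20 and 9.29. The dimmer A_52_P672212 read 0.728, 0.701, 0.828 and 0.792. The probes differed from each other by 0.005 in the control ratio and 0.05 in the bezafibrate ratio. The ratios by time were 0.19 and 0.19 in control mice and 0.22 and 0.18 in bezafibrate mice.

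Pdia4 and Pdia6 encode protein disulfide isomerases, which form and rearrange disulfide bonds. Pdia4 read 1.59, 1.57, 1.79 and 1.76, with ratios by time of 0.17 in control and 0.16 in bezafibrate mice. For Pdia6 the 3 probes did not read alike. The brightest, A_52_P70810, read 18.5, 17.6, 21.6 and 23.9, with ratios of 0.22 ± 0.20 and 0.44 ± 0.20. A_51_P297968 read 6.03, 5.44, 6.22 and 6.35, with ratios of 0.04 and 0.22. A_52_P339495 read 1.24, 1.30, 1.42 and 1.29, with ratios of 0.19 and -0.01. Averaged over its probes, the ratio for Pdia6 in bezafibrate mice is 0.22 instead of 0.44.

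**Figure D2:**
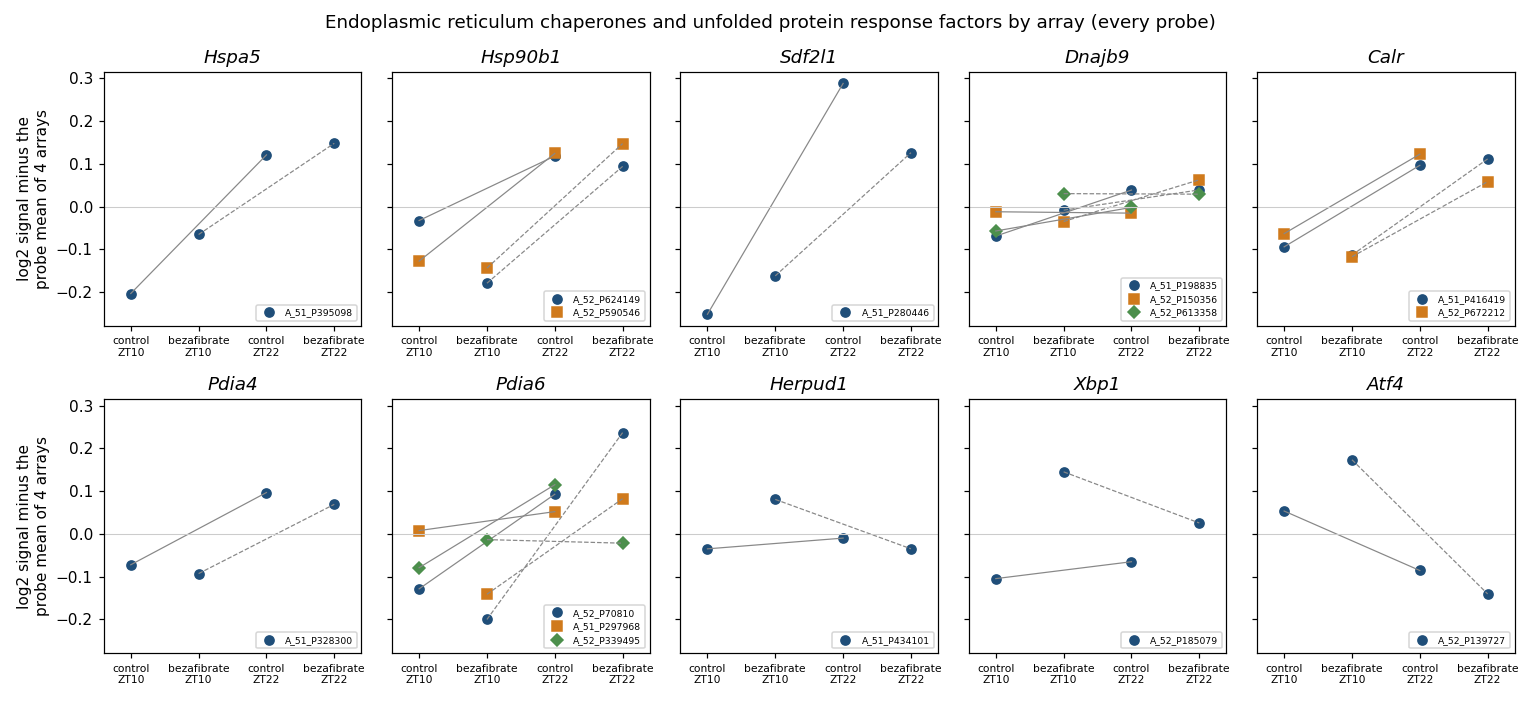
Log2 scaled signal of each member on the 4 arrays, minus the mean of the same probe over the arrays, with 1 symbol per probe and lines joining ZT10 to ZT22 within control (solid) and bezafibrate (dashed) mice. In the chaperone panels the lines slope upward for 12 of 13 probes in control and 11 of 13 in bezafibrate mice, while Atf4 slopes downward in both diets.

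Herpud1 encodes a membrane protein of the machinery that returns misfolded proteins for degradation. It read 8.47, 9.17, 8.61 and 8.47, highest in bezafibrate mice at ZT10. The ratios by time were 0.03 ± 0.20 in control and -0.12 ± 0.20 in bezafibrate mice.

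Xbp1 encodes the transcription factor made after IRE1 splices its transcript. It read 2.14, 2.54, 2.20 and 2.34, with the bezafibrate pools above the control pools at each time. The ratios by time were 0.04 and -0.12, each ± 0.20. The single probe gives 1 level for the gene, so spliced and unspliced transcript were not told apart.

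Atf4 encodes the factor whose translation rises when PERK slows general protein synthesis, so its transcript level need not follow its protein. It read 1.83, 1.99, 1.66 and 1.60, and both ZT22 pools lay below both ZT10 pools. The ratio by time was -0.14 ± 0.20 in control mice and -0.31 ± 0.20 in bezafibrate mice. The latter was at percentile 1.01 of the 7798 bright genes, at the opposite end from Pdia6 at percentile 98.8.

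By counts, 9 of 10 members had a ratio above 0 in control mice (all but Atf4) against 58.1% of 16405 genes compared. In bezafibrate mice it was 7 of 10, against 59.2% of 16013. A level at least 25% higher at ZT22 was reached by 2 members in control mice, Hspa5 and Sdf2l1, against 7.52% of genes. In bezafibrate mice 1 member reached it, Pdia6, against 7.22%. Hspa5 reached it narrowly, at 1.252-fold. No member differed by 1.5-fold in either direction, against 4.57% and 3.61% of genes. Of the chaperones, 6 of 7 had log2 ratios above 0.1 in both diets, beside 17.4% of the 15918 genes measured on all 4 arrays. Dnajb9 was the exception. The limit of 0.1 is smaller than the scanner error. Because the members were chosen with earlier results of these data known, these counts are descriptions and were not tested.

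**Figure D3:**
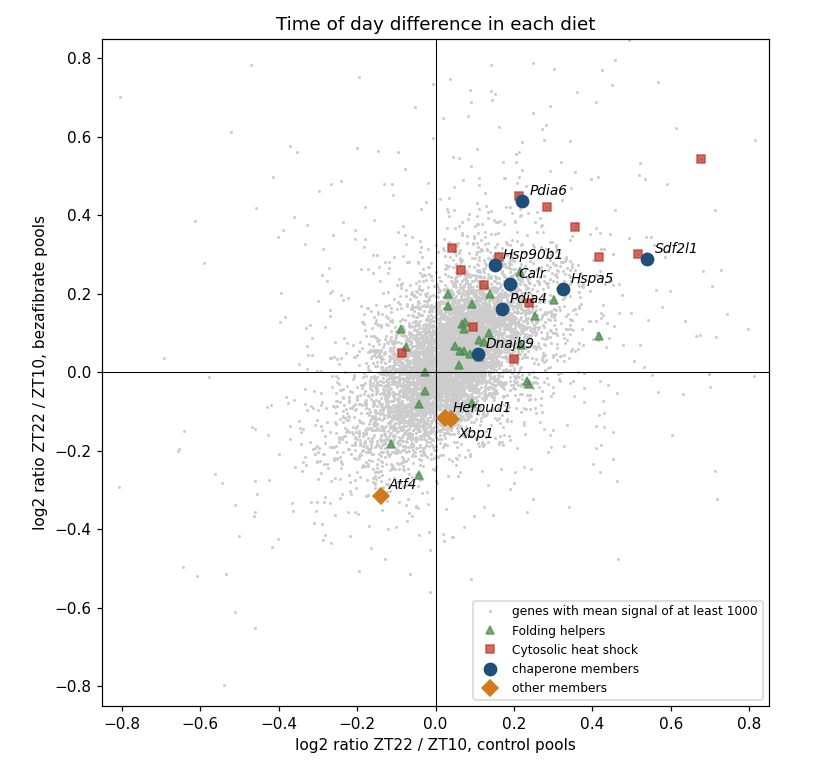
Log2 ratio of ZT22 over ZT10 in control mice (horizontal) against bezafibrate mice (vertical), with the 7798 bright genes in grey and the members, folding helpers and cytosolic heat shock genes marked. All 7 chaperones lie above 0 on both axes, and Atf4 lies below 0 on both.

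An additive limma fit of diet and time over the 4 arrays, with Benjamini-Hochberg adjustment over 17543 genes, left 1 residual degree of freedom. Its error is the difference of the diet ratio between times, joined with a variance shared over genes. The SE and p-values below therefore do not measure spread between mice or pools. The fit called 0 genes by time at an adjusted p under 0.05 (0.0%), so no member passed. At an unadjusted p under 0.05, 4 members met it, Hspa5, Sdf2l1, Calr and Pdia6, against 10.8% of genes. The time effect averaged over diets was 0.27 ± 0.06 (SE) for Hspa5 in this limma fit, with an unadjusted p of 0.0365 and an adjusted p of 0.439. For Sdf2l1 it was 0.41 ± 0.10 (SE) and for Atf4 -0.23 ± 0.08 (SE), both with the same adjusted p of 0.439 from limma. The lowest limma adjusted p among members ranged from 0.217 to 0.453 over the processing alternatives. Time cannot be told apart from place on the slide, since the ZT10 pools were at positions 2 and 4 and the ZT22 pools at positions 1 and 3. The same holds for diet, since the control pools were at positions 1 and 2 and the bezafibrate pools at positions 3 and 4.

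Between diets the members had small ratios in no common direction, with counts near the shares over all genes. At ZT10, 6 of 10 were higher in bezafibrate mice, against 52.7% of 16118 genes. At ZT22, 5 of 10 were higher, against 52.3% of 16215. None of the 10 differed enough for the higher diet to exceed the lower by 25% at ZT10, against 7.99% of genes, or at ZT22, against 9.78%. None differed by 1.5-fold, against 2.44% and 3.19%. These shares include dim genes. For most of the 7798 bright genes the diet ratio lay between -0.19 and 0.21 at ZT10 and between -0.20 and 0.23 at ZT22.

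Xbp1 had the largest diet ratio, 0.25 ± 0.20 at ZT10, which was the 98.3rd percentile of bright genes, and 0.09 ± 0.20 at ZT22. Herpud1 and Atf4 were each 0.12 ± 0.20 at ZT10, and at ZT22 -0.03 and -0.05. Hspa5 was 0.14 ± 0.20 at ZT10 and 0.03 at ZT22. Over brightest probes the lowest at ZT10 was Hsp90b1 at -0.15 ± 0.20, with -0.02 on its other probe. Pdia6 was -0.07 at ZT10 on its brightest probe and -0.15 and 0.07 on the others. At ZT22 the range ran from -0.16 ± 0.20 for Sdf2l1 to 0.14 ± 0.20 for Pdia6, whose other probes gave 0.03 and -0.14. Dnajb9, Calr and Pdia4 lay between -0.03 and 0.06 at both times on their brightest probes.

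The difference between the diet ratios at ZT22 and ZT10 ran from -0.25 for Sdf2l1 to 0.22 for Pdia6, each ± 0.29 by scanner error. It had no test, since each diet and time had 1 array. By the additive limma fit 0 genes were called by diet (0.0%), and 0 members had an unadjusted p under 0.05 against 5.43% of genes. The lowest adjusted p of a member for diet in limma was 0.87.

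**Figure D4:**
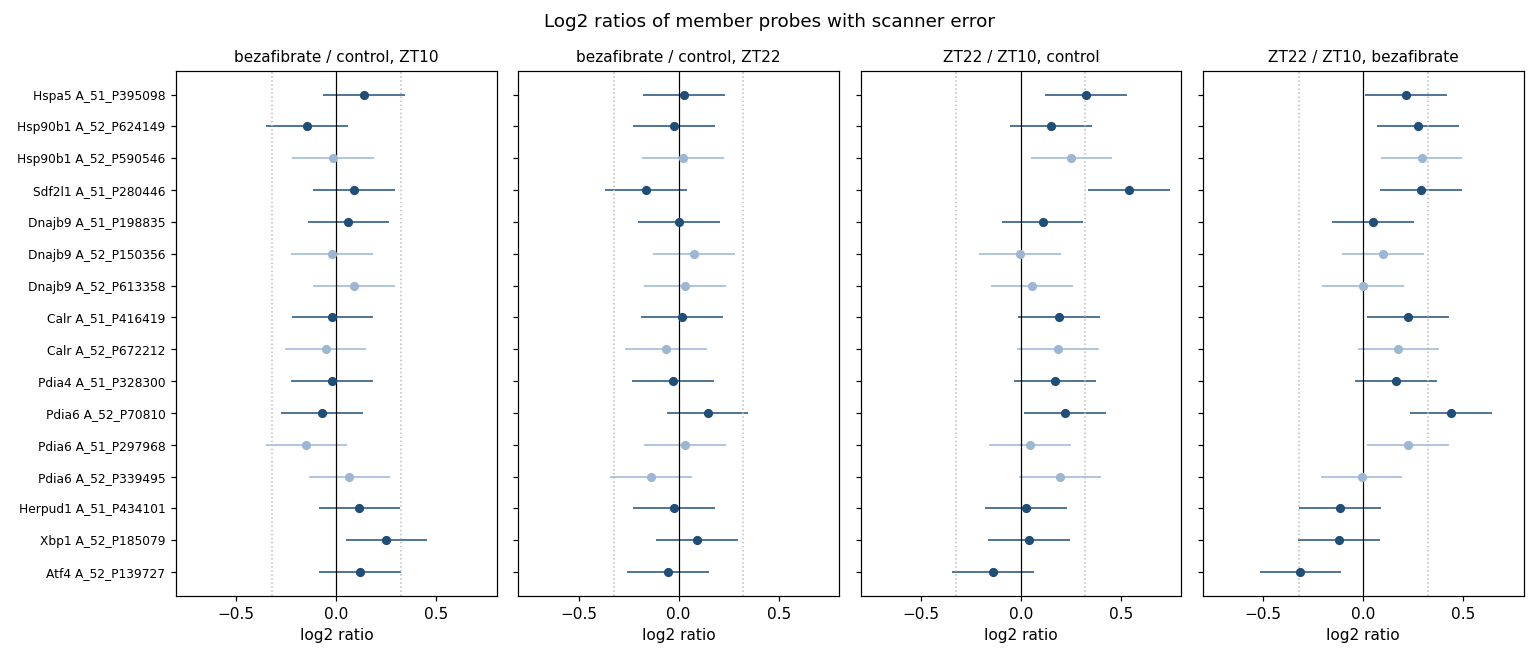
Log2 ratio of every member probe in the 4 comparisons, with bars for the scanner error, dark for the brightest probe of a gene and light for its others; dotted lines mark a level 25% above the lower value, in either direction. In the diet panels all points lie between these lines, and in the time panels Hspa5, Sdf2l1 and Pdia6 reach it.

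Other genes of the pathway were read from lists chosen by role. The folding helpers, proteins that assist the chaperones, were mostly higher at ZT22, 24 of 31 in control mice and 24 of 31 in bezafibrate mice, with medians of 0.08 and 0.07. Over all genes compared, 58.1% and 59.2% were higher, which holds as background for the lists that follow. Those above 0.1 in both diets were 4 of 31, or 12.9%, below the 17.4% of all genes. Creld2, a secreted disulfide-linked stress protein, read 7.79, 9.18, 10.4 and 9.80, with a ratio of 0.42 ± 0.20 in control and 0.09 in bezafibrate mice. Manf, a secreted survival factor, had ratios of 0.30 and 0.18, and Pdia3, an isomerase that works with calreticulin, 0.21 and 0.26. Canx, the membrane-bound relative of calreticulin, had 0.11 and 0.04. Hyou1, the large Hsp70 of the lumen, went the other way at -0.04 and -0.26.

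Of the genes for degradation and protein entry, 23 of 29 were higher at ZT22 in control and 21 of 29 in bezafibrate mice, with medians of 0.08 and 0.07. Derl3, a channel protein of degradation, read 0.20, 0.21, 0.278 and 0.243, with ratios of 0.48 ± 0.21 and 0.21 ± 0.21. Edem3, which trims glycans of misfolded proteins, had 0.36 in control and 0.22 in bezafibrate mice, and Edem1 had -0.05 and -0.03. Derl2 had 0.33 and 0.22 on its brightest probe, but 0.05 and -0.07 on its other probe.

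The sensors had ratios by time near 0 on their brightest probes. Ern1, which encodes IRE1, had ratios by time of -0.06 in control and 0.03 in bezafibrate mice. Eif2ak3, which encodes PERK, had -0.03 and 0.03, and Atf6 had -0.04 and 0.04 on its brightest probe and 0.03 and 0.16 on its other probe. In this list of sensors and factors 7 of 17 were higher at ZT22 in control and 9 of 17 in bezafibrate mice. Wfs1, a membrane protein of the endoplasmic reticulum, was high on a single array, at 13.4, 13.0, 12.7 and 18.7; its diet ratio at ZT22 was 0.56 ± 0.20. Creb3l1 and Mbtps2 were also high on a single array each. Creb3l1 read 0.293 in control mice at ZT10 and 0.0295 to 0.0466 elsewhere. Mbtps2 read 0.255 in control mice at ZT22 and 0.0273 to 0.0318 elsewhere. Both signals are low, and no second probe above background was there to compare. The dim Creb3l3 and Creb3l4 had diet ratios at ZT22 of -0.41 ± 0.22 and 0.32 ± 0.24.

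Targets of ATF4 and CHOP were divided. In control mice 18 of 26 were higher at ZT22, and in bezafibrate mice 16 of 25, both with a median of 0.03, that of all genes being 0.03 and 0.04. Ddit3, which encodes CHOP, had ratios of -0.04 and 0.01, and Ppp1r15a, which restores translation, had -0.15 and -0.18. Chac1, which degrades glutathione, had 0.41 ± 0.20 in control and 0.10 in bezafibrate mice. Slc7a5, an amino acid transporter, had 0.29 and 0.51 ± 0.20. Atf3, a stress-induced factor, had a diet ratio at ZT22 of -0.55 ± 0.21 at low signal. Stc2, above background on only 2 arrays, had -0.34 ± 0.33 by time in control mice.

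The heat shock genes listed as cytosolic, which include the mitochondrial Hspe1, were also mostly higher at ZT22. Of 14 heat shock genes, 13 were higher at ZT22 in control mice and 14 in bezafibrate mice, with medians of 0.21 and 0.29. Hspa1a, an inducible Hsp70, read 2.30, 2.38, 3.67 and 3.47, with ratios of 0.68 ± 0.20 and 0.54 ± 0.20. Its other probes gave 0.49 to 0.84 in control and 0.02 to 0.64 in bezafibrate mice, and signal of its near-identical copy Hspa1b may not be separable. Chordc1, a partner of Hsp90, had 0.52 and 0.30, and the small chaperone Hspb1 had 0.42 and 0.29. Hspe1, the mitochondrial co-chaperonin, had 0.35 and 0.37. Hsph1, an exchange factor for Hsp70, had 0.28 and 0.42. Hspa4, a related exchange factor, had 0.21 and 0.45, while its other probes gave -0.23 to 0.10 and -0.20 to 0.02.

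**Figure D5:**
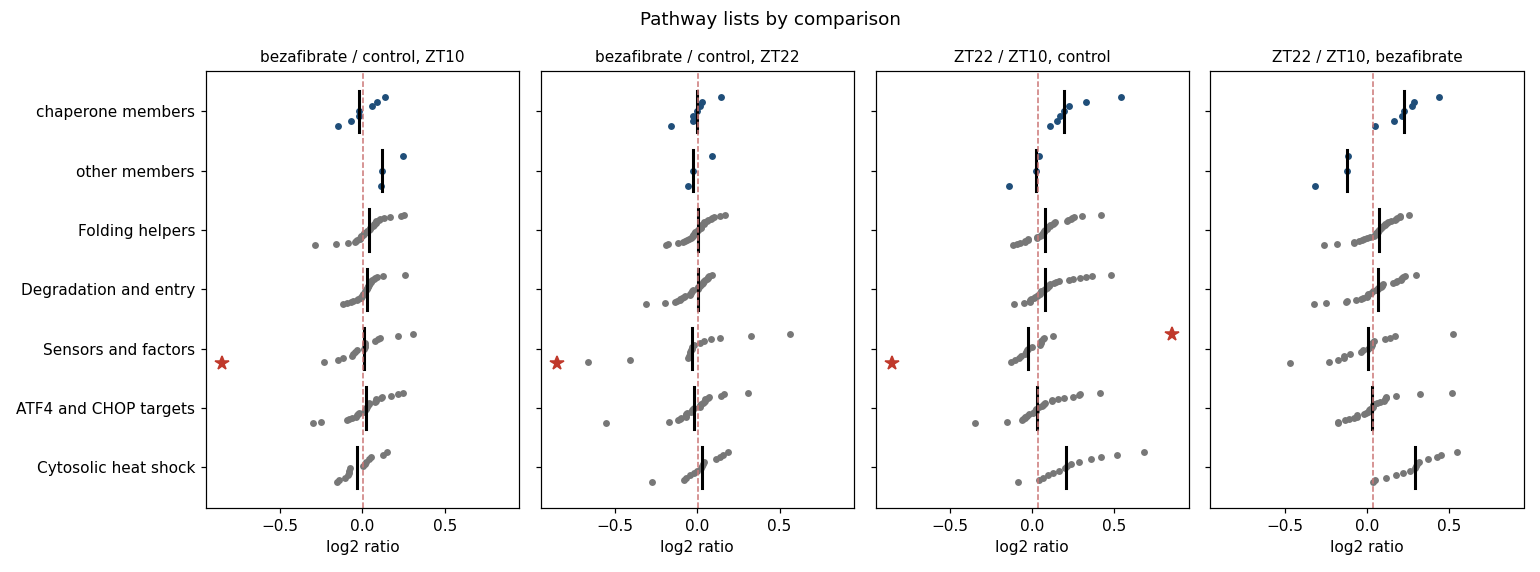
Log2 ratios of single genes (points) by list in the 4 comparisons, with a black bar at the median of each list and a dashed line at the median of all genes; stars at the edge are Creb3l1 and Mbtps2, which lie beyond the axis. In both time panels the medians of the chaperones and the cytosolic heat shock genes lie to the right of the dashed line, at 0.19 to 0.29.

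The genes that hold ERSE were read in the same way, leaving out the members. Of 18 such genes compared, 14 were higher at ZT22 in control mice, with a median of 0.14. In bezafibrate mice 14 of 18 were higher, with a median of 0.08. Of all genes with a promoter, 58.9% and 59.5% were higher, with medians of 0.04 in both diets. In control mice 4 of the 18 were at least 25% higher at ZT22, against 7.52% of all genes compared. At least 25% higher at ZT10 was 1, against 5.46%. In bezafibrate mice 3 of the 18 were at least 25% higher at ZT10, against 4.92% of all genes compared. These were Calr4 at -0.998, Olfr59 at -0.62 and Ptgdr2 at -0.33, which had 1.85, 0.38 and 0.16 in control mice. Calr4 was highest in control mice at ZT22, with diet ratios of 0.56 at ZT10 and -2.30 at ZT22. Calr4 and Olfr59 are also among the 4 genes at least 25% higher at ZT22 in control mice. In bezafibrate mice 1 of the 18 was at least 25% higher at ZT22, Zfp57 at 0.39, against 7.22% of genes. The 18 genes include 6 of the lists above: Canx, Creld2, Derl3, Dnajc3, Ero1b and Syvn1. Creld2 and Derl3 are shown since they had the largest ratios of their lists in control mice.
Creld2, chr15:88819505-88819553, plus strand: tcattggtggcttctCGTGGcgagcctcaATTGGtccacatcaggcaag
Derl3, chr10:75893227-75893275, plus strand: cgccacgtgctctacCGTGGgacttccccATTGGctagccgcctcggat
Dnajc3, a BiP co-chaperone, had ratios of 0.25 and 0.14, Syvn1, a ubiquitin ligase of degradation, 0.13 and 0.09, and Ero1b, which supplies oxidation to the isomerases, 0.07 and 0.05. Sdf2l1, the member with the largest ratio, and Pdia4, Dnajb9, Xbp1 and Atf4 had no exact match to any of the 4 motifs in their windows. Sites that differ by a letter or lie outside the windows were not searched for.

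The genes with the profile nearest to Hspa5 over the 4 arrays, among 13098 measured, were Ttc32, Leo1, C1galt1c1, Ormdl2 and 2900009J20Rik. Their root mean square differences from it were 0.004 to 0.016 log2. Calr was the nearest member at rank 660, with 0.064, and Pdia4 was at rank 1292. The nearest to the mean of the members were Eef1d, Cyb561d1, Med26, Prpf18 and Atad1. With 4 arrays many genes share any given profile, so this likeness is a description of 4 values.

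Markers of the tissue and of other cells also differed by time. The 7 choroid plexus markers had summed scaled signals of 0.950, 0.914, 1.17 and 3.76, and 6 of 7 were higher at ZT22 in control and 7 of 7 in bezafibrate mice. The 8 striatum markers summed to 65.9, 64.7, 60.8 and 83.8, with 1 of 8 higher in control and 8 of 8 in bezafibrate mice. The 8 thalamus markers summed to 21.2, 17.9, 19.0 and 17.5, with 0 of 8 and 5 of 8 higher. The 11 peptide genes summed to 297, 258, 309 and 314, with 6 of 11 and 11 of 11 higher. The 8 pituitary markers summed to 5.50, 3.33, 4.59 and 6.07, with 1 of 7 and 5 of 5 higher among those above background, and Pou1f1 was not above background on any array. The 8 oligodendrocyte markers summed to 244, 243, 255 and 222, with 5 of 8 and 0 of 8 higher. The 6 endothelium markers summed to 11.7, 11.9, 15.4 and 14.2, with 3 of 6 and 4 of 6 higher. The sums of the neuron, astrocyte and microglia markers lay within 108 to 116, 79.2 to 89.5 and 12.4 to 13.4 over the 4 arrays. The 6 hypothalamus transcription factors summed to 1.24, 1.30, 1.38 and 1.44, both ZT22 pools lying above both ZT10 pools. Of those above background, 5 of 5 were higher at ZT22 in control mice, with a median of 0.18, and 3 of 5 in bezafibrate mice, with a median of 0.09. The part of these markers in the chaperone values was not tested.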

How the data were processed

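Hypothalamus RNA of 4 pools was measured on 4 single-colour Agilent arrays on 1 slide. Per the file headers, the authors extracted spots with Feature Extraction 9.5.1.1, and the deposited processed signal is a background-subtracted intensity with no scaling between arrays. The deposited files also hold other marks per spot (above background, outlier). Per the labels, the authors' deposited value table is a ratio of bezafibrate over control. It correlated with the log2 ratios here at r of 0.997 (ZT10) and 0.994 (ZT22) over spots, and this settled which array of a sample was bezafibrate.

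Outlier spots were left out, signals were divided by each array's 75th percentile, and log2 ratios were taken. Each gene's brightest probe on average stood for it, and a gene entered a comparison when above background on both arrays. Probes were named by accession or symbol through RefSeq names of GRCm38.p6. Promoters came from RefSeq of the same build, and no protein or probe sequence was used. limma 3.58.1 in R 4.3.3 fitted diet and time, and the fit was tested on simulated data. The alternatives were the median or quantile scaling, normexp (offset 50, on the median in place of the mean spot intensity), a signal minimum of 100, the mean over probes and the deposited ratio table.

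All 10 members were named. Of the other lists, genes whose levels differed by 25% over the lower value were named, up to 6 per list and comparison, with 12 always named, and the 5 genes nearest in profile. Dnajc3, Ero1b, Syvn1, Calr4, Olfr59, Ptgdr2 and Zfp57 were chosen after their values were seen, as genes with ERSE. The members and lists were chosen with earlier results of these data known.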

Additional observations from a re-analysis of the deposited data

Results flagged for a closer look

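Srprb, which encodes a subunit of the receptor that brings ribosomes to the endoplasmic reticulum, had opposite diet ratios at the 2 times, 0.26 ± 0.20 at ZT10 and -0.31 ± 0.20 at ZT22. The difference was -0.57. Equally, its ratio of ZT22 over ZT10 was 0.25 ± 0.20 in control and -0.32 ± 0.20 in bezafibrate mice, which is the same difference of -0.57 seen by time. Its scaled signals were 1.37, 1.64, 1.62 and 1.31. The other probes gave diet ratios of -0.01 to 0.20 at ZT10 and -0.24 to -0.05 at ZT22. The difference was not tested, since each diet and time had 1 array.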

How the results depend on the processing

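All 7 chaperones were higher at ZT22 in both diets under the main scaling and all 5 alternatives tried for time, with medians of 0.15 to 0.19 in control and 0.18 to 0.22 in bezafibrate mice. The signal minimum could not change the member ratios, and median scaling left those by time in control mice unchanged. With normexp the Dnajb9 ratio in bezafibrate mice was 0.003, below the median of 0.04 over all genes. Counts near a limit moved. Members differing by at least 25% between times, in either direction, were 1 with quantile scaling and 1 with normexp in control mice (2 here). In bezafibrate mice they were 2 with median scaling, 2 with quantile scaling and 0 with the mean over probes (1 here). The member added in bezafibrate mice was Atf4, lower at ZT22, at -0.33 with median scaling and -0.34 with quantile scaling. Chaperones higher in bezafibrate mice at ZT10 were 5 with median scaling (3 here). At ZT22 the members higher in bezafibrate mice were 3 with quantile scaling and 2 in the deposited ratio table without centring (5 here), and the chaperones 2 and 1 (4 here). The counts of members differing by 25% between diets stayed at 0. Averaged over diets, the time effect of Pdia6 was 0.19 with the mean over probes (0.33 here) and that of Hsp90b1 0.13 with quantile scaling (0.21 here). With a signal minimum of 100, limma gave 7 members an unadjusted p under 0.05 by time, beside 20.2% of 13103 genes (4 members and 10.8% here). With normexp there were 5 beside 12.6% and with quantile scaling 1 beside 11%, and under each the adjusted p of members was 0.217 or more. No paired analysis was possible because each diet and time had 1 array, and leaving out 1 array leaves 0 residual degrees of freedom, so that was not run. The number of arrays limits the precision.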
